A study of Mus musculus with 6 samples.

Results

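The Cyp2c cytochromes described here are 10 mouse genes of the cytochrome P450 subfamily 2C, namely Cyp2c29, Cyp2c37, Cyp2c38, Cyp2c39, Cyp2c40, Cyp2c44, Cyp2c50, Cyp2c54, Cyp2c69 and Cyp2c70. They were taken by name from the 22180 genes that the platform annotation ties to a probe set with 1 gene symbol. The annotation lists Cyp2c44 under its current symbol, Cyp2c23. The probe set of each gene was chosen by its mean log2 signal over all 6 arrays, the highest being used, which ignores the group of an array. That choice mattered for Cyp2c29 alone, where the probe set used had a mean log2 signal of 11.98 and the other one 3.34. All 10 members were measured, and no filter on low signals was applied.

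Livers came from male mice, 12 weeks old, of the FAH5981SB line on a C57Bl/6J background. All of them carry a point mutation in Fah that leaves them without stable fumarylacetoacetate hydrolase, the last enzyme of tyrosine breakdown, and NTBC (nitisinone) protects such mice by blocking the pathway further up. The withdrawal group (3 arrays) went without NTBC for 7 days from the age of 11 weeks. In the continuous group (3 arrays) it was given throughout. NTBC, when given, was in drinking water at 8 mg/l, and 3% dextrose is recorded for both groups. Both groups ate a chow low in tyrosine and phenylalanine. Fah-proficient mice are not part of the comparison, so it shows the effect of stopping NTBC in mutant livers and not the effect of the mutation. The replicates are labelled biological, with no animal named, so the p-values reflect only how much these samples vary.

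CYP2C enzymes sit in the endoplasmic reticulum of hepatocytes, where they take electrons from P450 reductase and cytochrome b5 and insert oxygen into drugs, steroids and fatty acids. Many mouse members turn arachidonic and linoleic acid into epoxides or hydroxy acids, and Cyp2c70 makes the muricholic acids that set mouse bile apart from human bile. In the liver their genes are known to respond to the nuclear receptors CAR and PXR, to HNF4A and, for some, to growth hormone. The family lies in 1 cluster on chromosome 19, except that Cyp2c44 lies apart. In the RefSeq table used here (GRCm38.p6), the 14 protein-coding genes that start inside the cluster are all Cyp2c genes, and 52 other protein-coding genes start between Cyp2c70 and Cyp2c44. The copies are close relatives whose transcripts could bind each other's probes. Probe sequences were not used here, so the size of such cross-hybridisation was not tested.

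All member promoters at hand are shown, so that members with alike upstream sequences can be set beside each other whether their calls were alike or not. RefSeq windows were found for 8 of the 10 members, and each sequence below is the 250 bases before an annotated start (GRCm38.p6), read towards the gene. Capitals mark letters of the motifs named in the paragraph that follows.
Cyp2c37 (chr19:39992174-39992423, plus strand): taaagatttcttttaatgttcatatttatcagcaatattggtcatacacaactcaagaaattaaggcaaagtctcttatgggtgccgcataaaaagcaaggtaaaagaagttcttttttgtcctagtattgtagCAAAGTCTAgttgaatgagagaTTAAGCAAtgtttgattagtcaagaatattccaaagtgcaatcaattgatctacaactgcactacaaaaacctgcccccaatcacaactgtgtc
Cyp2c50 (chr19:40089429-40089678, plus strand): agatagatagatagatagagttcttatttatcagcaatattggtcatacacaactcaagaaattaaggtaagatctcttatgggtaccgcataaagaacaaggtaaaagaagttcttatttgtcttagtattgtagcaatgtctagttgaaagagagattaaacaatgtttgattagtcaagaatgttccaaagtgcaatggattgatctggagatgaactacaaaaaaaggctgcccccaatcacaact
Cyp2c29 (chr19:39286835-39287084, plus strand): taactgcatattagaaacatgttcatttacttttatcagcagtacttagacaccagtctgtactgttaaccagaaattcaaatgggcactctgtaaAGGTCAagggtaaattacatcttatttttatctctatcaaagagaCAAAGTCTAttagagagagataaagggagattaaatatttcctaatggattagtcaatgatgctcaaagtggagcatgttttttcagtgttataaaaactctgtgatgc
Cyp2c38 (chr19:39463076-39463325, minus strand): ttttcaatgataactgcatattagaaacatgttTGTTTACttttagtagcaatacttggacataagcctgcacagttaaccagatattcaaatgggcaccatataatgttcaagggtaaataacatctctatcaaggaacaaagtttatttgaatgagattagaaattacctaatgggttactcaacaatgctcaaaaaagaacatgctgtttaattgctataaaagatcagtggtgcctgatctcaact
Cyp2c39, start at the left on the chromosome (chr19:39347096-39347345, plus strand): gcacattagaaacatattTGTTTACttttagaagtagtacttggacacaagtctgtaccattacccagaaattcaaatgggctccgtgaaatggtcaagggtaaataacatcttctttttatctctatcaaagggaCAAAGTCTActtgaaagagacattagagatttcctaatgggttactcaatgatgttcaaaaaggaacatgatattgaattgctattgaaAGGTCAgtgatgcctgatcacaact
Cyp2c39, start at the right on the chromosome (chr19:39510572-39510821, plus strand): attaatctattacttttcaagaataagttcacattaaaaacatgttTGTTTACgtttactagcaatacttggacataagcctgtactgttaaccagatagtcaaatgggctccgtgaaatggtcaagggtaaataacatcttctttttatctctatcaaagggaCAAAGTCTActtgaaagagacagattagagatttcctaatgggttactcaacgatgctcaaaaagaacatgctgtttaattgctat
Cyp2c40 (chr19:39812815-39813064, minus strand): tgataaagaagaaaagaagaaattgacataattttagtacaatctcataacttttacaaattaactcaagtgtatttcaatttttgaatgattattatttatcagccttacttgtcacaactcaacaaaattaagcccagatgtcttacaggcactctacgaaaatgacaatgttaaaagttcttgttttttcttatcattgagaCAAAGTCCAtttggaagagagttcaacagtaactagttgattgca
Cyp2c69 (chr19:39886770-39887019, minus strand): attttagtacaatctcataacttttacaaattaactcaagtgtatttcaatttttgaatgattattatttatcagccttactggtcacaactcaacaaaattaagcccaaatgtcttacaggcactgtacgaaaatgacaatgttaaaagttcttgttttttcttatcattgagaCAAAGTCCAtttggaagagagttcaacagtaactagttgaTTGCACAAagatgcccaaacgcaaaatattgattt
Cyp2c70 (chr19:40187287-40187536, minus strand): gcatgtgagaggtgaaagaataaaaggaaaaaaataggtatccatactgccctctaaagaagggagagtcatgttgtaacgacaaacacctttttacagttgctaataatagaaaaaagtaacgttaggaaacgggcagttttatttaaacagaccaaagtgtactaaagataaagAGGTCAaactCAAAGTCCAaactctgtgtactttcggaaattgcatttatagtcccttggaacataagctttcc

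The windows of Cyp2c37 and Cyp2c50, which both fell after withdrawal, had 215 identical bases in a global alignment (86.0% of 250). The window of Cyp2c38, which rose, had 74.8% in common with that of Cyp2c29, whose signal overlapped between groups, and 80.4% and 79.2% with the windows of Cyp2c39, which rose. The windows of Cyp2c40, which did not pass, and Cyp2c69, which fell at the edge of the threshold, had 86.8% in common. Similar upstream letters were thus found both in pairs with the same call and in pairs with unlike calls. The window of Cyp2c70 had 59.6% in common with that of Cyp2c37 and 59.2% with that of Cyp2c50. Both are near the low end for this family, where the least alike pair of windows (Cyp2c40 and Cyp2c37) had 55.6%.

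Of the motifs searched on both strands, CAAAGTCCA, a site of the liver factor HNF4A, was found in 3 of the 8 members with a window (Cyp2c40, Cyp2c69 and Cyp2c70) and in 0.384% of all 32851 windows of this length. Its relaxed form CAAAGTCNA, which contains it and was added after the windows were seen, was in 6 members (Cyp2c29, Cyp2c37, Cyp2c39, Cyp2c40, Cyp2c69 and Cyp2c70) and in 0.898% of all windows. In Cyp2c37 it spans bases -116 to -108 from the start, in Cyp2c29 bases -109 to -101 and in Cyp2c70 bases -64 to -56, just after the nuclear receptor core AGGTCA at -74 to -69. The window of Cyp2c50 had none of the motifs searched. The AGGTCA core was in Cyp2c29, Cyp2c39 and Cyp2c70, and in 14.0% of all windows. The forkhead core TGTTTAC was in Cyp2c38 and in both windows of Cyp2c39, the members that rose, and in 3.17% of all windows. Those windows are alike (80.4% and 79.2% identical), so the matches are not independent of each other. Cyp2c55, a Cyp2c gene outside the members whose used probe set also rose, had none of the motifs in its window. The C/EBP motif TTGCNNAA was in Cyp2c37, as its reverse complement, and in Cyp2c69 (9.56% of all windows). The STAT5 palindrome TTCNNNGAA and TGACNNNGC, the core of the antioxidant response element, were in no member and in 7.02% and 10.2% of all windows. These matches describe letters only, and binding was not measured.

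After 7 days without NTBC, Cyp2c54, Cyp2c50, Cyp2c37 and Cyp2c44 fell between 6.79-fold and 20.0-fold, Cyp2c70 fell 1.94-fold, and Cyp2c69 fell 1.75-fold at the edge of the threshold. Cyp2c39 and Cyp2c38 rose 5.07-fold and 4.72-fold. Cyp2c29 and Cyp2c40 did not pass, with log2 changes of -0.02 (95% interval -0.38 to 0.35) and 0.05 (95% interval -0.75 to 0.84). In all, 6 of the 10 members fell and 2 rose at an adjusted p of 0.05 from limma over all 34472 probe sets, of which 3.20% were lower, 6.21% higher and 9.40% either. The 3 arrays of 1 group lay wholly apart from those of the other for the same 8 members, 6 lower and 2 higher, where 13.7% of all probe sets lay wholly lower, 13.9% wholly higher and 27.6% either. The median log2 change was -0.88 over the 10 members and -0.08 over all probe sets. The members were chosen with earlier results of these data known, so these counts describe the family and are no independent evidence of a direction. In bulk liver, fewer cells of a type and less RNA per cell cannot be told apart.

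**Figure D1:**
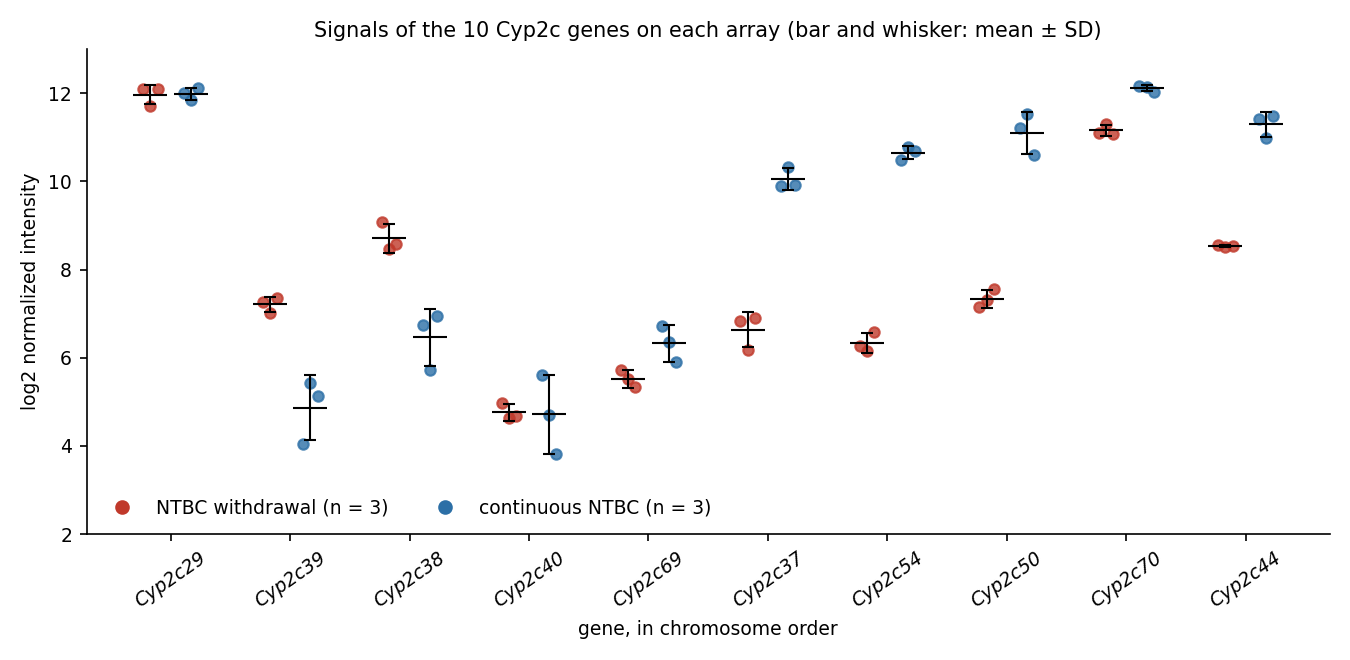
Log2 normalized intensity of the 10 Cyp2c genes on each array, with withdrawal (red) left of continuous NTBC (blue), genes in chromosome order, and mean ± SD as black bars. The withdrawal arrays lie wholly below the continuous ones for Cyp2c69, Cyp2c37, Cyp2c54, Cyp2c50, Cyp2c70 and Cyp2c44, wholly above them for Cyp2c39 and Cyp2c38, and overlap for Cyp2c29 and Cyp2c40.

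Cyp2c54 and Cyp2c50 are neighbours on the chromosome and encode epoxygenases of arachidonic and linoleic acid. Cyp2c54 had log2 signals of 6.27, 6.15 and 6.58 on the withdrawal arrays, against 10.49, 10.79 and 10.69 on the continuous arrays. The gap between the groups was wider than the range within either of them. Its mean was 6.33 ± 0.22 after withdrawal and 10.66 ± 0.15 on continuous NTBC (SD, n = 3 each), a log2 change of -4.32 (SE 0.17, limma adjusted p = 1.04e-06). The withdrawal signal was 5.00% of the continuous one and still above the lower quartile of every array (4.03 to 4.26), which stands in here for a background level that the table does not give.

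Cyp2c50 had log2 signals of 7.15, 7.32 and 7.56 after withdrawal, against 11.21, 11.52 and 10.59 on continuous NTBC. All withdrawal arrays were low, and continuous replicate 3 was the lowest of its group. Cyp2c50 thus fell 13.6-fold, a log2 change of -3.76 (SE 0.23, limma adjusted p = 1.33e-05).

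Cyp2c37, on the other side of Cyp2c54 in the cluster, encodes an arachidonic acid hydroxylase. Its log2 signals were 6.84, 6.18 and 6.90 after withdrawal, against 9.90, 10.34 and 9.93 on continuous NTBC. The groups did not overlap, although withdrawal replicate 2 was lower than the other two. This was a 10.7-fold fall, or a log2 change of -3.42 (SE 0.22, limma adjusted p = 1.65e-05).

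Cyp2c44 lies apart from the cluster and is known as an arachidonic acid epoxygenase of kidney and blood vessels as well as liver. It had log2 signals of 8.55, 8.52 and 8.53 after withdrawal, against 11.42, 10.98 and 11.49 on continuous NTBC. The withdrawal arrays were nearly the same, with an SD of 0.015, and the continuous arrays varied more (SD 0.28). The log2 change was -2.76 (SE 0.17, limma adjusted p = 1.33e-05), a 6.79-fold fall.

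Cyp2c70, which hydroxylates chenodeoxycholic acid on the way to muricholic acids, had log2 signals of 11.10, 11.30 and 11.08 after withdrawal, against 12.17, 12.15 and 12.04 on continuous NTBC. The groups were separate and each was tight. The log2 change was -0.96 (SE 0.14, 95% interval -1.28 to -0.64, limma adjusted p = 0.00251), so that 51.4% of the continuous signal was left.

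Cyp2c69, a gene known to be female-biased in mouse liver, had log2 signals of 5.73, 5.51 and 5.33 after withdrawal, against 6.72, 6.36 and 5.90 on continuous NTBC. The highest withdrawal array and the lowest continuous array were close to each other. The log2 change was -0.80 (SE 0.21, limma adjusted p = 0.0419). It did not pass once withdrawal replicate 1 (adjusted p = 0.0780), withdrawal replicate 2 (0.126), withdrawal replicate 3 (0.117), continuous replicate 1 (0.0764) or continuous replicate 2 (0.119) was left out, and it passed in the absence of continuous replicate 3 (0.0136). Quantile normalization (0.0751), median centring (0.0993) and array weights (0.0523) ended it too.

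Cyp2c39 and Cyp2c38, whose proteins make epoxides of arachidonic acid (Cyp2c39 also hydroxylates retinoic acid), were the members that rose. Cyp2c39 had log2 signals of 7.27, 7.02 and 7.35 after withdrawal, against 4.04, 5.44 and 5.13 on continuous NTBC. Continuous replicate 1 lay below the lower quartile of its array (4.11), and the withdrawal arrays were all well above it. Its rise was 2.34 on the log2 scale (SE 0.30, limma adjusted p = 0.00108), and 2.32 with that signal raised to the quartile.

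Cyp2c38 had log2 signals of 9.08, 8.47 and 8.58 after withdrawal, against 6.74, 5.73 and 6.94 on continuous NTBC. All withdrawal arrays were higher, and here continuous replicate 2 was the lowest array. The log2 change was 2.24 (SE 0.30, limma adjusted p = 0.00116). Both genes varied more within the continuous group (SD 0.74 for Cyp2c39 and 0.65 for Cyp2c38) than within the withdrawal group (SD 0.17 and 0.33), and different arrays were low in each.

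Cyp2c29, an arachidonic acid epoxygenase known as a CAR-responsive gene, had log2 signals of 12.10, 11.72 and 12.09 after withdrawal, against 12.00, 11.84 and 12.12 on continuous NTBC. The groups overlapped, and the sign of the small change turned positive (0.08) under median centring. Its second probe set, at 2.97, 3.21 and 3.60 after withdrawal and 3.24, 3.30 and 3.70 on continuous NTBC, lay below the lower quartile of every array. Cyp2c40, an arachidonic acid hydroxylase that is female-biased in liver, had 4.98, 4.64 and 4.67 after withdrawal, against 5.62, 4.71 and 3.82 on continuous NTBC. The continuous arrays spread over a wide range (SD 0.90) that holds all the withdrawal arrays, and its sign changed with the array left out.

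In chromosome order the measured genes run from Cyp2c55 past Cyp2c65, Cyp2c66, Cyp2c53-ps, Cyp2c29, Cyp2c39, Cyp2c38, Cyp2c68, Cyp2c40 and Cyp2c69 to Cyp2c37, Cyp2c54, Cyp2c50 and Cyp2c70. Cyp2c39 is placed by its start at the left, and its start at the right lies past the window of Cyp2c38. The neighbours Cyp2c37, Cyp2c54 and Cyp2c50 fell most, and the fall of Cyp2c70 beside Cyp2c50 was smaller. In this order Cyp2c39 and Cyp2c38, which rose, come after Cyp2c29. Close relatives that share probes would also give neighbours with like changes, and the part this plays was not tested.

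**Figure D2:**
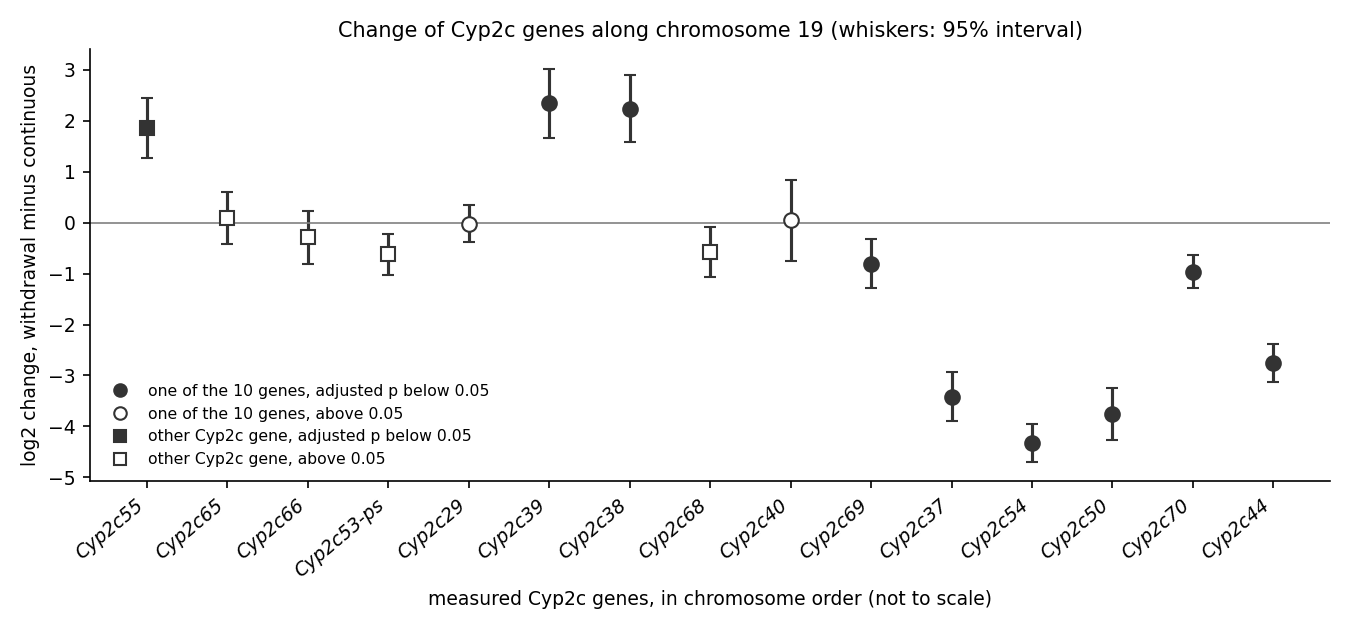
Log2 change (withdrawal minus continuous) with its 95% interval for the 15 Cyp2c genes that have a probe set with 1 symbol. They are in chromosome order by annotated start, for Cyp2c39 the start at the left, and not to scale. Circles are the 10 genes described, squares other Cyp2c genes, and filled symbols passed an adjusted p of 0.05. Cyp2c37, Cyp2c54 and Cyp2c50 lie together at the bottom (-3.42, -4.32 and -3.76), with Cyp2c39 and Cyp2c38 at the top (2.34 and 2.24).

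Whether 2 members changed unequally was read from the difference of their log2 signals within each array, for 8 pairs chosen with their values known. With 3 arrays against 3, an exact two-sided permutation test cannot go below p = 0.1, or 0.133 after Benjamini-Hochberg adjustment over the 8 pairs, so no pair could pass 0.05. Cyp2c54 minus Cyp2c37 ran from -0.57 to -0.03 after withdrawal and from 0.45 to 0.76 on continuous NTBC, a difference of -0.91 between the groups (exact permutation p = 0.1). The fall of Cyp2c54 was therefore the larger of the pair on these arrays, without overlap. Cyp2c54 minus Cyp2c50 differed by -0.56 (exact permutation p = 0.1), also without overlap. Cyp2c50 minus Cyp2c37 ran from 0.31 to 1.14 after withdrawal and from 0.66 to 1.31 on continuous NTBC, which overlap (exact permutation p = 0.3).

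The contrasts between other pairs of the cluster with unlike changes were wider. Cyp2c39 minus Cyp2c29 differed by 2.36 between the groups and Cyp2c38 minus Cyp2c29 by 2.26, both without overlap (exact permutation p = 0.1). Cyp2c50 minus Cyp2c70 differed by -2.80 and Cyp2c37 minus Cyp2c69 by -2.61 (exact permutation p = 0.1 for each). Cyp2c39 minus Cyp2c38 differed by 0.10, and the groups overlapped (exact permutation p = 1.0).

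Of the Cyp2c genes outside the 10, Cyp2c55, a member best known from the intestine and inducible in liver, rose 3.64-fold. It had log2 signals of 8.18, 7.92 and 7.59 after withdrawal, against 6.28, 5.40 and 6.42 on continuous NTBC (log2 change 1.86, SE 0.26, limma adjusted p = 0.00178). A second probe set annotated to Cyp2c55 did not follow, at 6.35, 6.32 and 6.52 after withdrawal, against 6.81, 6.62 and 6.40 on continuous NTBC (log2 change -0.21, adjusted p = 0.457). The probe sets of this gene thus disagree.

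Cyp2c68 had a log2 change of -0.58 (limma adjusted p = 0.146), and a probe set shared by Cyp2c67 and Cyp2c68 one of -0.50 (adjusted p = 0.155). Neither passed. Cyp2c65 (0.09), Cyp2c66 (-0.29) and the pseudogene Cyp2c53-ps (-0.62, adjusted p = 0.0626) lay below the lower quartile on all 6 arrays.

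None of the genes that supply electrons to these enzymes or bind them in the membrane passed as lower. Of 6 measured redox partners, 1 rose, where 6.21% of all probe sets were higher, with a median log2 change of 0.30. Pgrmc1, a heme-binding membrane protein that associates with P450 enzymes, had log2 signals of 12.92, 13.07 and 13.10 after withdrawal, against 11.99, 11.95 and 12.15 on continuous NTBC (log2 change 1.0, SE 0.14, limma adjusted p = 0.00198). Cytochrome b5 (Cyb5a, 0.41, adjusted p = 0.110) and its outer mitochondrial form Cyb5b (0.43, adjusted p = 0.101) did not pass. These 3 genes and Cyb5r3 (0.19, adjusted p = 0.482) lay wholly higher after withdrawal. That makes 4 of the 6 wholly higher and none wholly lower, where 13.9% and 13.7% of all probe sets did. No value is given for P450 reductase, which has no probe set of its own in the annotation used here.

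Among enzymes around fatty acid epoxides, Ephx1, the microsomal epoxide hydrolase, rose and Cyp2j5, an arachidonic acid epoxygenase of another subfamily, fell. Of 11 measured genes of the Cyp2j group and the epoxide hydrolases these were the only ones that passed. The median log2 change was -0.13, and 9.40% of all probe sets passed in either direction. Ephx1 had 12.05, 12.03 and 11.93 after withdrawal, against 10.41, 10.15 and 10.53 on continuous NTBC (log2 change 1.64, SE 0.15, limma adjusted p = 1.49e-04). Cyp2j5 had 10.75, 11.07 and 10.42 after withdrawal, against 12.33, 12.15 and 12.36 on continuous NTBC (log2 change -1.53, SE 0.18, limma adjusted p = 6.71e-04). Ephx2, the soluble hydrolase that turns fatty acid epoxides into diols, had a change of -0.18 (adjusted p = 0.475) and did not pass.

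Of 8 measured genes of arachidonic acid release and reacylation, 2 rose and none fell (6.21% and 3.20% of all probe sets), with a median of 0.19. They were Acsl4, which activates arachidonic acid for return to phospholipids (1.12, SE 0.17, limma adjusted p = 0.00257), and Pla2g6, a calcium-independent phospholipase (0.83, SE 0.17, adjusted p = 0.0111). Pla2g6 did not pass once withdrawal replicate 1 was left out (adjusted p = 0.0729).

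Of 11 measured genes of bile acid synthesis, the setting of Cyp2c70, 7 fell and none rose (3.20% and 6.21% of all probe sets), with a median of -0.97. Cyp2c70 itself changed by -0.96. Cyp7b1, the oxysterol hydroxylase of the alternative pathway, changed by -1.93 (SE 0.16, limma adjusted p = 7.43e-05), Hsd3b7, which acts on the sterol nucleus, by -1.61 (SE 0.15, adjusted p = 1.49e-04), and Cyp27a1, the sterol side chain hydroxylase, by -1.05 (SE 0.14, adjusted p = 0.00137). The arrays of the groups did not overlap for any of these. Of the 7, the bile acid CoA ligase Slc27a5 (-0.70, adjusted p = 0.0144), singled out after its values were seen, did not pass once withdrawal replicate 1 was left out (0.0933) or under median centring (0.0542).

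Factors known to act at Cyp2c genes mostly did not pass. Of 18 measured, 1 rose and 2 fell (6.21% and 3.20% of all probe sets), with a median of -0.26. Rxra, the partner of CAR and PXR, had 9.12, 9.08 and 8.88 after withdrawal, against 10.09, 9.90 and 9.63 on continuous NTBC (log2 change -0.85, SE 0.17, limma adjusted p = 0.0100). Nfe2l2, which encodes NRF2, rose by 1.50 (SE 0.15, limma adjusted p = 2.68e-04). Cebpa, a hepatocyte transcription factor, fell by 0.58 on the log2 scale at the edge of the threshold (adjusted p = 0.0478). Its call was lost without any 1 array except continuous replicate 3, with a highest adjusted p of 0.196, without withdrawal replicate 1, and under median centring (0.150). CAR (Nr1i3, -0.38, adjusted p = 0.363), PXR (Nr1i2, 0.21, adjusted p = 0.546) and Hnf4a (0.13, adjusted p = 0.630), named after their values were seen, did not pass.

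Genes known to respond to CAR or PXR went mostly up, the opposite way to most of the 10 Cyp2c genes. Of 11 measured, 8 rose and 2 fell (6.21% and 3.20% of all probe sets), with a median of 1.45. Gstm3, a glutathione transferase, rose 9.65-fold (limma adjusted p = 2.31e-05), Abcb1a, a drug efflux pump, 3.81-fold (adjusted p = 1.49e-04) and Aldh1a1, a retinal dehydrogenase, 2.97-fold (adjusted p = 1.64e-04). Several of these genes, Gstm3 among them, are also known targets of NRF2. Cyp2b10, a classic CAR target singled out after its values were seen, rose by 1.65 (SE 0.38, limma adjusted p = 0.0235), and did not pass once withdrawal replicate 1 (0.0965), withdrawal replicate 2 (0.0980) or continuous replicate 2 (0.0983) was left out. Those that fell were Thrsp, a regulator of fat synthesis (-3.38, adjusted p = 4.70e-05), and Cyp3a13 (-0.67, adjusted p = 0.0289), which, when arrays were left out singly, passed only in the absence of withdrawal replicate 2 (highest adjusted p = 0.120, in the absence of withdrawal replicate 1). Cyp3a13 did not pass under median centring either (0.10). The remaining measured gene, Cyp3a11, did not pass (-0.30, limma adjusted p = 0.267), and its withdrawal arrays lay wholly below the continuous ones.

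Several Cyp2c genes, Cyp2c29, Cyp2c37, Cyp2c50 and Cyp2c54 among them, are known to be expressed mainly around the central vein, so genes of both ends of the liver lobule were set beside them. Of 17 measured pericentral genes, 6 fell and none rose (3.20% and 6.21% of all probe sets), with a median of -0.48. The other 11 did not pass. By array overlap 8 of the 17 lay wholly lower after withdrawal and 1 wholly higher, where 13.7% and 13.9% of all probe sets did. The higher one was the cytochrome Cyp1a2 (0.55, limma adjusted p = 0.069), singled out after its values were seen. Rgn, regucalcin, changed by -2.84 (SE 0.14, limma adjusted p = 4.48e-06), Oat, ornithine aminotransferase, by -2.35 (adjusted p = 6.02e-05) and Slc1a2, a glutamate transporter, by -1.56 (adjusted p = 6.47e-04). Of 14 measured periportal genes, 6 fell and 2 rose (3.20% and 6.21% of all probe sets), with a median of -0.37. Among these Hal, histidine ammonia-lyase, changed by -2.71 (adjusted p = 1.87e-04), Uroc1, which follows it in histidine breakdown, by -2.02 (adjusted p = 8.44e-04), and the urea cycle enzyme Cps1 by -1.08 (adjusted p = 0.00179). Ass1, another urea cycle enzyme among the 6, singled out after its values were seen, changed by -0.85 (adjusted p = 0.0312). It passed with continuous replicate 1 left out and with no other single array left out (highest adjusted p = 0.105, in the absence of continuous replicate 2), and did not pass under median centring (0.0523). Genes of both zones fell, and the difference between the zones was not tested. The periportal genes that rose were Aldh1b1, an aldehyde dehydrogenase (1.36, adjusted p = 0.0115), and Hsd17b13, a lipid droplet protein (0.89, adjusted p = 0.0184). Aldh1b1 did not pass once withdrawal replicate 2 was left out (adjusted p = 0.0546). Hsd17b13 did not pass once withdrawal replicate 1 (0.0903), withdrawal replicate 2 (0.0848) or continuous replicate 2 (0.0661) was left out.

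**Figure D3:**
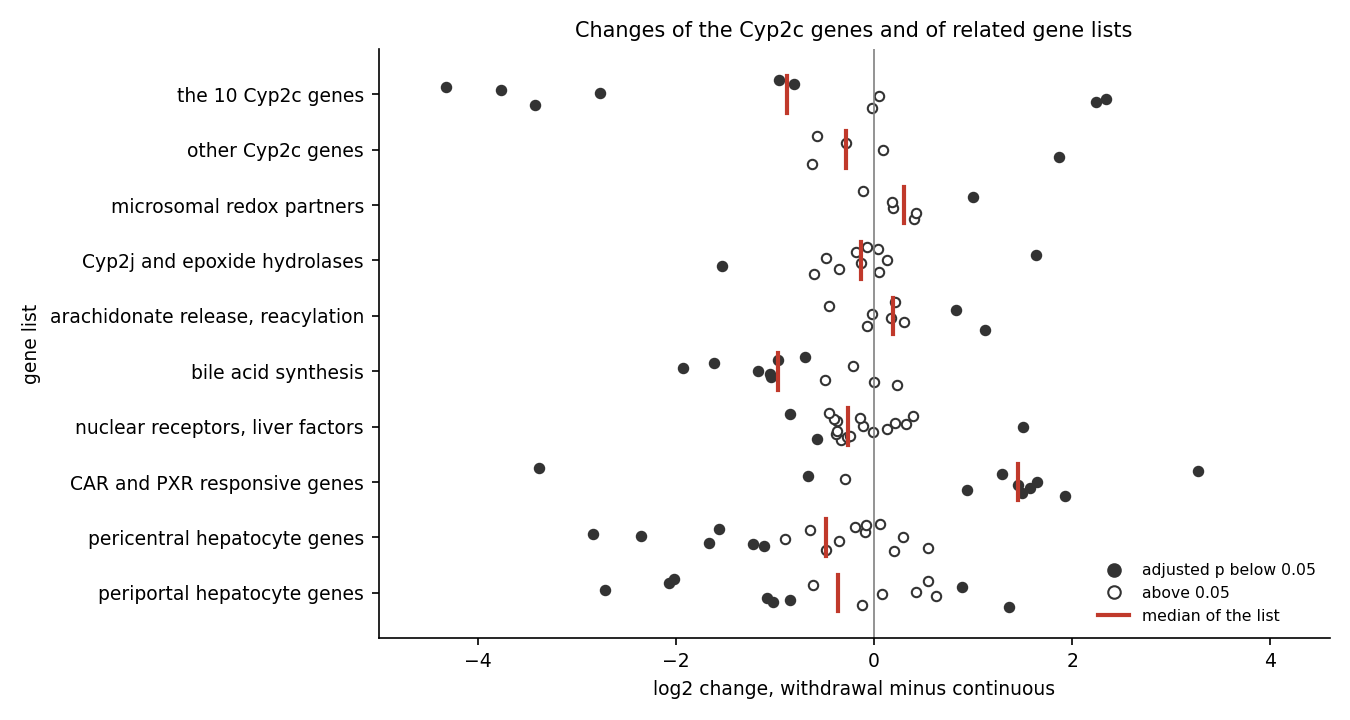
Log2 change (withdrawal minus continuous) of every measured gene of the 10 Cyp2c genes and 9 related lists, 1 dot per gene, filled where the adjusted p was below 0.05, with the median of each list in red. The Cyp2c genes span from -4.32 to 2.34, while bile acid synthesis genes have a median of -0.97 and CAR and PXR responsive genes one of 1.45.

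Markers of the cells in the samples were read on the same arrays. Of 8 measured hepatocyte markers none passed in limma (2 had an unadjusted p below 0.05), with a median of -0.06 and a summed intensity of 77049 to 85594 after withdrawal, against 84223 to 86027 on continuous NTBC. Those 2 were Serpina1a (-0.77, limma adjusted p = 0.062) and Fgb (-0.37, adjusted p = 0.142), both downward. Fgb and Apoa1 (-0.23, adjusted p = 0.352) lay wholly lower after withdrawal and none of the 8 wholly higher, where 13.7% and 13.9% of all probe sets did. Alb, the main serum protein of hepatocytes, was at 14.12 ± 0.01 after withdrawal and 14.17 ± 0.06 on continuous NTBC (SD, n = 3 each). Its signals lay near the top of the arrays, and whether such bright signals can register a change was not tested. Sinusoidal endothelial markers moved with the groups: 2 of 8 rose (Clec4g by 0.81 and Lyve1 by 1.07), where 6.21% of all probe sets were higher. The median of the 8 was 0.42, with summed intensities of 2207 to 2326 after withdrawal, against 1410 to 1725 on continuous NTBC. The Lyve1 call held without continuous replicate 1 or continuous replicate 3 and was lost without any other array (highest adjusted p = 0.130, without withdrawal replicate 2), and quantile normalization ended it (0.0661). Their part in the Cyp2c changes was not tested.

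Of the markers of other cell types, none of 10 for Kupffer cells and macrophages, 8 for stellate cells, 5 for cholangiocytes, 7 for lymphocytes, 4 for enterocytes and 4 for pancreatic acinar cells passed in limma. At an unadjusted p below 0.05 there were 1 macrophage, 2 stellate, 1 lymphocyte and 1 enterocyte marker, and 0 of the cholangiocyte and acinar markers. Continuous replicate 2 was the highest array for all 4 acinar markers, with Ctrb1, a digestive protease, at 8.56 there, against 6.31 and 6.58 on the other continuous arrays, and Cpa1, a carboxypeptidase, at 7.26 against 5.19 and 5.15. Without this array 7 of the 8 members that passed still did, and Cyp2c69 did not. These cell type lists had summed intensities that overlapped between the groups, except for enterocyte markers. Those were at 667 to 918 after withdrawal and 1008 to 1157 on continuous NTBC. Fabp2 made up most of that sum, at 9.70, 9.61 and 9.16 after withdrawal, against 9.85, 10.06 and 10.04 on continuous NTBC (limma adjusted p = 0.117). Vil1, Alpi and Sis overlapped between the groups, with Sis below the lower quartile on all 6 arrays. The neutrophil marker Retnlg, 1 of 6 measured, passed as lower (-0.65, limma adjusted p = 0.0483), below the lower quartile on all 6 arrays, and with single arrays left out it passed only in the absence of continuous replicate 1 (highest adjusted p = 0.169, in the absence of withdrawal replicate 2). Quantile normalization (0.0714) and median centring (0.0717) ended this call. No erythroid marker had a probe set with 1 symbol. Fah, mutated in both groups, had a log2 change of -0.15 (adjusted p = 0.718). Hpd, the enzyme that NTBC blocks, had 12.07, 12.02 and 11.96 after withdrawal, against 12.67, 12.51 and 12.79 on continuous NTBC (log2 change -0.64, SE 0.15, limma adjusted p = 0.0210). It did not pass once withdrawal replicate 1 (0.0854), withdrawal replicate 2 (0.0774), withdrawal replicate 3 (0.0629) or continuous replicate 3 (0.0710) was left out, nor under median centring (0.0706).

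The genes whose centred log2 signals lay closest to those of Cyp2c54 over the 6 arrays were sought among 18738 named genes outside the family. They were the sulfotransferase Sult2a8 (root mean square distance 0.31), the uridine phosphorylase Upp2 (0.34), Lrg1, a secreted leucine-rich glycoprotein (0.37), the methyltransferase Inmt (0.39) and the complement gene C8b (0.47). Their log2 changes ran from -4.61 for Inmt to -3.81 for C8b. Sult2a8 had 7.34, 7.62 and 7.86 after withdrawal, against 11.55, 11.47 and 11.29 on continuous NTBC. Its log2 change of -3.83 was smaller than that of Cyp2c54 (-4.32).

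For Cyp2c39 the closest genes were Dusp6, a phosphatase of ERK (distance 0.22), Cachd1 (0.39), the thyroxine carrier Serpina7 (0.40), the small heat shock protein Hspb1 (0.40) and Ifi27l2b (0.41). Dusp6 had 10.61, 10.54 and 10.59 after withdrawal, against 7.98, 9.07 and 8.60 on continuous NTBC. It shared with Cyp2c39 the low signal of continuous replicate 1. Since the measure picks genes with a like change between the groups, their changes are a description and carry no test here. None of these 10 genes lies on chromosome 19.

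**Figure D4:**
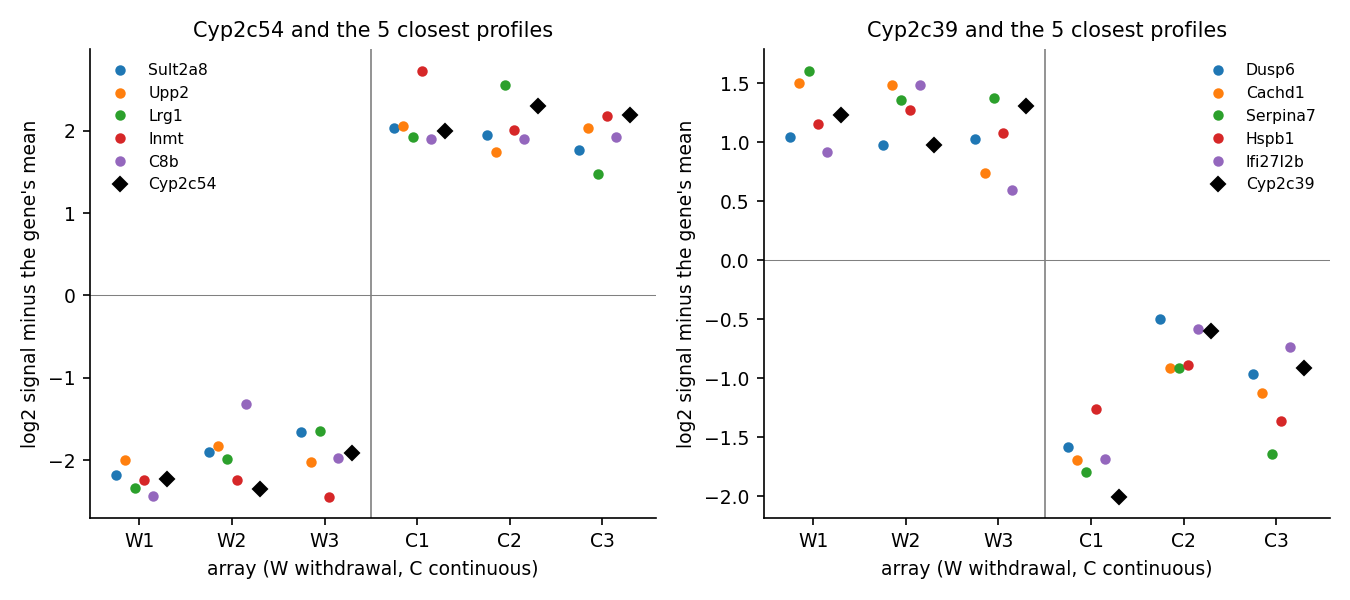
Log2 signal of Cyp2c54 (left) and Cyp2c39 (right), black diamonds, with the 5 genes closest to each, each gene centred on its own mean, on the withdrawal arrays (W1 to W3) and the continuous arrays (C1 to C3). The genes near Cyp2c54 lie low on every withdrawal array, and those near Cyp2c39 lie lowest on continuous replicate 1, apart from Hspb1.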

How the data were processed

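Liver RNA was hybridised as biotin-labelled material to 6 Affymetrix mouse gene arrays, per the labels' protocols. The deposited values are normalized intensities, linear in scale, which the authors made with Transcriptome Analysis Console, per the submitters' processing notes. Its version, the background correction, the normalization method and the genome build of the array are not given in the sources used here, and the table has no detection flags.

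Intensities were taken as normalized and turned to log2. In limma 3.58.1 (R 4.3.3; lmFit, eBayes) 34472 probe sets entered a two-sided comparison, withdrawal minus continuous, with p-values adjusted after Benjamini and Hochberg over the whole table and a threshold of 0.05. The fit was tested on simulated data. Precision is limited by the number of arrays (3 in each group). The platform annotation gave the gene names, with 23521 probe sets of 1 symbol, 1814 of several, which name no gene here, and 9137 of none. Median log2 signals ran from 5.21 to 5.39 on the withdrawal arrays and from 5.29 to 5.44 on the continuous arrays, and correlations across probe sets from 0.985 to 0.991 and from 0.978 to 0.980, against 0.955 to 0.969 between the groups.

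The members, the gene lists and the rule for named genes were chosen with earlier results of these data known. The rule took all 10 members, the other measured Cyp2c genes, from each list the members that passed (the 3 with the smallest p in a direction where over 5 did), any redox partner or epoxide hydrolase, and the 5 genes closest in profile to the members with the largest fall and the largest rise. Predicted genes, clones and Cyp2c genes were passed over in that search. Promoters were aligned with Biopython 1.88 (match 1, mismatch -1, gap opening -2, gap extension -0.5).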

Additional observations from a re-analysis of the deposited data

How the results depend on the processing

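Of the 10 members, 7 (Cyp2c37, Cyp2c38, Cyp2c39, Cyp2c44, Cyp2c50, Cyp2c54 and Cyp2c70) kept their direction and their side of the threshold under all 14 tested alternatives, and their direction with low signals raised to the lower quartile of their array. These were quantile normalization, median centring, leaving out dim probe sets, the replicate block, trend with robust, array weights, probe sets with 1 symbol only, leaving out single arrays, and averaging the probe sets of a gene. Without single arrays the log2 change of Cyp2c54 ran from -4.45 to -4.23, that of Cyp2c50 from -4.02 to -3.56 and that of Cyp2c39 from 1.93 to 2.63. The count of higher members was 2 and that of lower members 5 to 6 without single arrays, Cyp2c69 being the member that was lost. The sign of Cyp2c29, which never passed, was turned by median centring (0.0833) and array weights (0.0258), and its change ran from -0.09 to 0.11 with single arrays left out, above 0 in the absence of withdrawal replicate 2 (0.11) or continuous replicate 3 (0.05). The change of Cyp2c40, which never passed either, ranged from -0.40 to 0.50 with single arrays left out, was below 0 in the absence of withdrawal replicate 1 (-0.06) or continuous replicate 3 (-0.40), and turned with raised low signals (-0.10). The count of all probe sets called, 3241, was 5588 with array weights and ran from 1454 (without withdrawal replicate 1) to 4210 (without continuous replicate 1), with 1795 without withdrawal replicate 2 and 2078 without continuous replicate 2. Higher probe sets were 66.0% of calls as deposited and 77.2% after median centring, where the median change over the table was 0.02 in place of -0.08. The cause of these shifts was not tested. Replicate numbers are shared by the groups, but the deviations of same-numbered arrays correlated at 0.16, -0.13 and 0.22, and 3 of 6 arrays correlated best with their own number, so the numbers do not show a pairing. With the replicate block 3298 probe sets were called, with 2 members higher and 6 lower. Among the other genes named, Cebpa (adjusted p = 0.0592) and Retnlg (0.0587) did not pass with it. The table gives no background level, so folds of low signals can be compressed.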
